A study of Homo sapiens with 54 samples.

Results

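NCI-H460, a long-established human lung cancer line of the large cell type, was given nicotine alone and compared with untreated cells of that line at the 24 h harvest. The comparison rests on 6 of the 54 arrays of the study, the 3 titled as nicotine at 24 h and the 3 titled as control at 24 h, chosen by their titles and not by any measured value. All 6 cultures had spent a day in medium without serum before treatment. The nicotine group received 5 uM nicotine, and the cultures were harvested 24 h after the step, 2 h later, at which other cultures were irradiated or given cisplatin. The untreated group received none of these agents. Other groups of the study, used here only to show where nicotine alone differs, received smoke extract holding 5 uM nicotine, 6 Gy of ionizing radiation, 1 uM cisplatin, or nicotine together with radiation or cisplatin. Whole-transcript arrays were hybridised with 1 RNA sample each, and levels are given on the log2 scale of the deposited values for 18417 genes. The labels call the 3 samples of a group biological replicates. All of them come from 1 cell line treated concurrently, so p-values measure the spread between such cultures only, and their number limits the precision.

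Nicotine is the main alkaloid of tobacco and an agonist of nicotinic acetylcholine receptors, which are ion channels built of 5 subunits that let sodium and, for some compositions, calcium into the cell. In epithelial and lung cancer cells the receptors are known for signalling through calcium, the MAP kinase cascade and the PI3K and AKT kinases, with reported effects on survival, proliferation and the response to therapy. Nicotine itself is not a known ligand of the aryl hydrocarbon receptor (AHR), the sensor of combustion products in smoke.

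The nicotine group held the least alike pair of replicates in the study. Pearson correlations over all 33297 rows of the table were 0.989 between nicotine 1 and nicotine 2, 0.990 between nicotine 1 and nicotine 3, and 0.979 between nicotine 2 and nicotine 3. The last is the lowest within any of the 18 groups, whose correlations ran from 0.979 to 0.996. The 3 untreated arrays correlated at 0.994 to 0.995, and nicotine 1 correlated with untreated 1 at 0.996. Nicotine 2 was displaced along the level of the genes. When genes were sorted by their mean level into 5 equal parts, the median difference of nicotine 2 from the mean of the 9 groups at 24 h was 0.12 in the lowest part, 0.13 in the next, and -0.18 and -0.12 in the upper 2 parts. Nicotine 3 ran the opposite way, from -0.097 in the lowest part to 0.059 in the highest. A mean over 452 genes of olfactory, taste and keratin-associated families, which are largely silent in such cells, was 5.09 in nicotine 2 against 4.83 and 4.84 in the other nicotine arrays and 4.87, 4.87 and 4.94 in the untreated arrays. Some counts and medians are given with and without nicotine 2. Estimates of single genes include it unless stated, and some of them shrink without it.

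**Figure D1:**
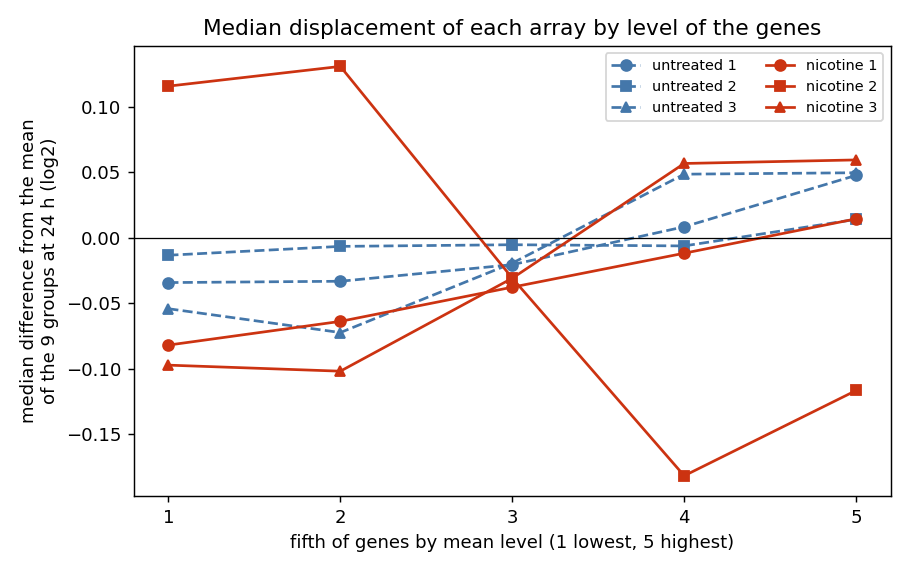
Median log2 difference of each of the 6 arrays from the mean of the 9 groups at 24 h (y axis) in 5 parts of the genes ordered by mean level (x axis, lowest to highest); solid red lines are nicotine arrays and dashed blue lines untreated arrays. Nicotine 2 runs from 0.12 in the lowest part to -0.18 in the fourth, while nicotine 3 runs from -0.097 to 0.059.

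The labelled cell type was checked against marker genes. The epithelial keratin KRT8 averaged 11.95 in untreated and 12.02 in nicotine cells, KRT18 averaged 11.23 and 11.26, and KRT19 averaged 11.76 and 11.67. The epithelial adhesion genes EPCAM and CDH1 lay in the lowest part of the genes by mean level, at 5.42 and 5.04 in untreated cells, so these defining markers of epithelium stood near the level of the silent families. Of 8 epithelial markers, 0 passed an unadjusted p of 0.05 between the groups, and the same holds for 7 neuroendocrine, 9 leukocyte, 8 fibroblast and 6 endothelial markers. Summed levels of the leukocyte markers ranged from 49.1 to 49.8 in untreated and from 49.0 to 50.7 in nicotine arrays. Those of the fibroblast markers ranged from 45.4 to 46.4 and from 46.1 to 46.2, and those of the endothelial markers from 33.4 to 33.8 and from 32.9 to 35.2. Those of the neuroendocrine markers ranged from 48.5 to 48.6 and from 48.3 to 49.1. Means per marker in untreated arrays were 8.22 to 8.38 for the epithelial and 6.92 to 6.95 for the neuroendocrine list. They were 5.45 to 5.53 for leukocyte, 5.68 to 5.80 for fibroblast and 5.56 to 5.64 for endothelial markers. Single members differed widely, with the leukocyte markers CD68 at 9.33 and PTPRC at 3.42 in untreated cells.

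Across all genes the differences between nicotine and untreated cells were small. In a limma fit with Benjamini-Hochberg adjustment over all genes, 1 gene passed an adjusted p of 0.05, or 0.00543% of those tested. It was lower with nicotine. No estimate exceeded 2-fold. Estimates exceeded 1.5-fold for 5 genes and 1.25-fold for 236 genes, of which 60 were higher and 176 lower. The median log2 change was -0.024, with 10875 genes (59.0%) below 0. At an unadjusted p under 0.05 there were 142 higher genes, or 0.771% of those tested, and 932 lower genes, or 5.06%. All 3 nicotine arrays lay above all 3 untreated arrays for 344 genes, or 1.87%, and below them for 1322 genes, or 7.18%.

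The excess of lower genes followed the level of the genes. In the lowest 2 parts by level, 34 and 35 genes were lower and 41 and 32 higher at an unadjusted p under 0.05. In the upper 2 parts, 311 and 406 were lower and 14 and 40 higher. The median change was 0.010 in the lowest part and -0.065 and -0.055 in the upper 2 parts. Nicotine 2 moved with this pattern. Without it, the median over the 9208 genes above the median level went from -0.056 to 0.00037. Over the 9209 genes below that level it went from 0.0086 to -0.044, and over all genes from -0.024 to -0.023. Leaving out nicotine 2 thus moved the lower median to the genes of low level. The split at an unadjusted p under 0.05 went from 142 higher among 1074 genes to 413 higher among 1167. After quantile normalization 282 of 994 were higher. The excess of lower genes was smaller in both settings, with lower genes still in the majority.

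**Figure D2:**
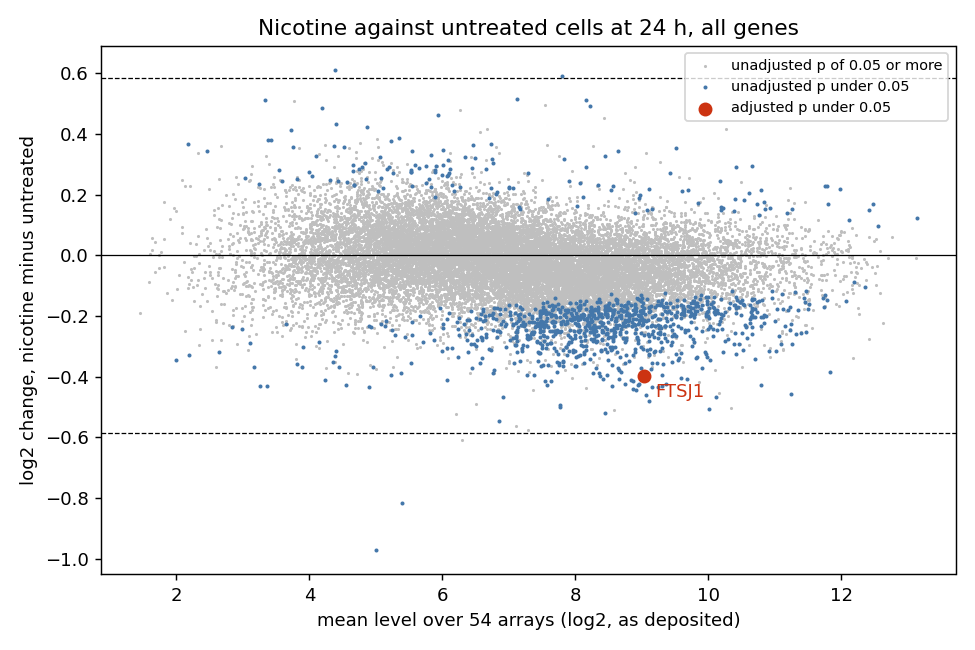
Log2 change of every gene, nicotine minus untreated (y axis), against its mean log2 level over all 54 arrays (x axis); blue points have an unadjusted p under 0.05, the red point an adjusted p under 0.05, and dashed lines mark 1.5-fold. FTSJ1 is the only red point, 5 genes lie beyond the dashed lines, and lower genes outnumber higher ones by 932 to 142 among the points with an unadjusted p under 0.05, mostly at middle and high levels.

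FTSJ1, which encodes a methyltransferase that adds a 2'-O-methyl group in the anticodon loop of certain transfer RNAs, was the gene that passed. Its level was 9.10, 9.13 and 9.24 in the untreated arrays and 8.79, 8.66 and 8.83 in the nicotine arrays. The groups do not overlap, and the highest nicotine value lies below the lowest untreated value. FTSJ1 fell by 0.40 on the log2 scale (SE 0.069, 95% interval -0.54 to -0.26, adjusted p = 0.0142 by limma), to 76.0% of the untreated level. With the replicate number as a block the adjusted p was 0.0235. The call depends on single arrays and on the other groups of the study. Without nicotine 2 the change was -0.34 with an adjusted p of 0.356, without untreated 3 it was -0.35 with an adjusted p of 0.652, and without untreated 2 it was -0.41 with an adjusted p of 0.0725. Fitted on the 6 arrays alone, with 4 residual degrees of freedom, its adjusted p was 0.99955.

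FTSJ1 in the other groups places the difference. At 2 h its mean was 9.23 ± 0.04 in untreated and 9.22 ± 0.05 in nicotine cells (SD, n = 3 each), a difference of -0.0057. In all 9 groups at 2 h it lay between 9.06 and 9.40. At 24 h it was highest in untreated cells, at 9.16 ± 0.07, and lay between 8.62 and 8.97 in the other 8 groups. Against the same untreated arrays it was also lower after radiation, by 0.35 (adjusted p = 0.000118). The differences after cisplatin and smoke extract, -0.21 and -0.19, had adjusted p of 0.0707 and 0.0586. These comparisons share the 3 untreated arrays with that of nicotine, so they are not separate evidence of a fall. Adding nicotine to irradiated cells and to cisplatin-treated cells, on arrays of their own, gave differences of -0.19 and -0.11 with adjusted p of 0.696 and 0.231.

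The 9 other genes with a lower estimate and the smallest p did not pass adjustment, with adjusted p from 0.178 to 0.345. NDUFS3, a core subunit of mitochondrial complex I, stood at 9.74, 9.71 and 9.82 in untreated and 9.57, 9.32 and 9.16 in nicotine arrays, a difference of -0.41 (SE 0.085, adjusted p = 0.178). NDUFA3, another complex I subunit, stood at 9.61, 9.70 and 9.77 against 9.53, 9.38 and 8.91, a difference of -0.42. In both genes nicotine 1 lay closest to the untreated arrays and nicotine 3 farthest. DMAC2, whose product takes part in the assembly of complex I, differed by -0.43, COQ4, needed for the synthesis of coenzyme Q, by -0.33, and TIMM50, a subunit of the protein import channel of the inner mitochondrial membrane, by -0.33. For CHAF1B, a subunit of the chromatin assembly factor that loads histones on new DNA, the values were 8.52, 8.52 and 8.57 against 8.29, 8.08 and 8.08. The others were NKIRAS2, which encodes a Ras-like protein that binds the NF-kB inhibitor, at -0.37, PRR3 at -0.36 and CFL1, which encodes the actin-severing protein cofilin, at -0.26. All 10 genes of this group, FTSJ1 included, had every nicotine array below every untreated array, which the choice by p favours. Without nicotine 1, NDUFS3, NDUFA3 and TIMM50 joined FTSJ1 past the threshold, with adjusted p of 0.0119, 0.0366 and 0.0366.

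None of the 10 genes with a higher estimate and the smallest p passed adjustment, and their adjusted p ran from 0.402 to 0.637. SERPINE2, an inhibitor of thrombin and urokinase secreted by many tumour cells, stood at 11.78, 11.67 and 11.61 in untreated and 11.79, 11.86 and 12.10 in nicotine arrays. Its difference was 0.23 (SE 0.058, adjusted p = 0.402), and nicotine 1 lay only just above untreated 1. MANF, a chaperone-like factor of the endoplasmic reticulum, stood at 9.87, 9.65 and 9.71 against 9.85, 9.96 and 10.08, so the groups overlapped. ZNRF2, a ubiquitin ligase gene, differed by 0.29, NTN1, which encodes the guidance factor netrin, by 0.24, CDV3 by 0.25 and AKR1B10, an aldo-keto reductase that detoxifies carbonyls, by 0.23. Another row for CDV3, at a mean level of 9.92 against 10.18 for the row used, differed by only 0.061. The remaining members were the olfactory receptor gene OR2B11 at 0.39, the microRNA gene MIR125B1 at 0.43, LOC101928953 at 0.35 and SNORD116-21 at 0.48. OR2B11 and MIR125B1 lie in the lowest part by level, at 5.16 and 4.17 in untreated cells. The silent-family means there were 4.87 to 4.94, and OR2B11 belongs to those families. Without nicotine 2, OR2B11 and MIR125B1 each differed by 0.27. SNORD116-21 belongs to a tandem cluster of similar small nucleolar RNAs whose copies may share probes, so its value is uncertain.

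**Figure D3:**
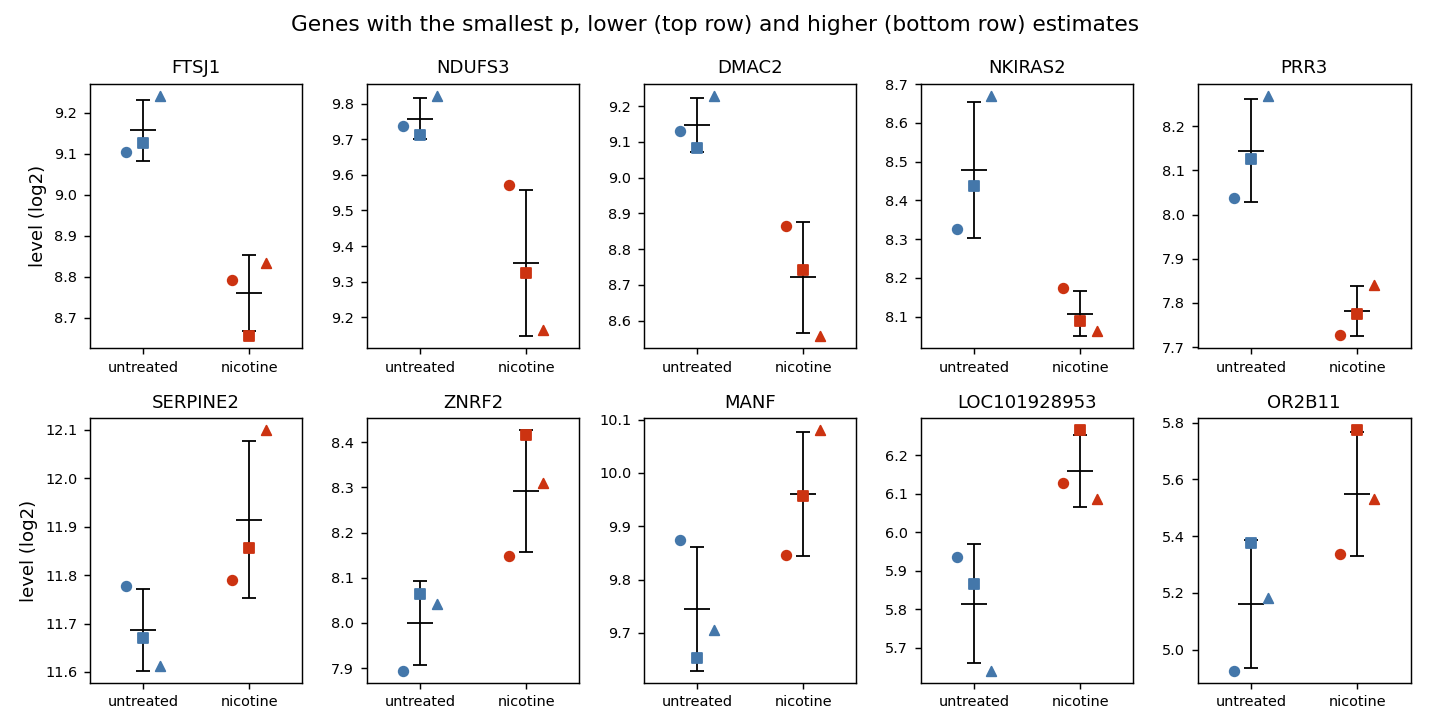
Log2 levels in the 3 untreated (blue) and 3 nicotine (red) arrays, with circles, squares and triangles for replicates 1, 2 and 3 and bars for mean ± SD, of the 5 genes with the smallest p among lower estimates (top) and higher estimates (bottom); each panel has its own y axis, which does not start at 0. FTSJ1 alone passed adjustment, and MANF and OR2B11 overlap between the groups.

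The 5 genes whose estimates exceeded 1.5-fold, singled out after their values were seen, were all noncoding RNA genes with wide error. For the antisense RNA gene LIMD1-AS1 the values were 4.52, 5.38 and 5.49 in untreated and 5.23, 3.64 and 3.60 in nicotine arrays. VTRNA1-1, a vault RNA gene, stood at 5.71, 6.33 and 6.00 against 6.10, 4.21 and 5.28, and the spliceosomal RNA gene RNU5D-1 at 6.55, 7.00 and 6.93 against 7.45, 5.79 and 5.41. In each of these 3 genes nicotine 1 lay within or above the untreated range. Higher estimates were found for SNORD116-18, at 0.61 with a 95% interval of 0.0033 to 1.22, and for TPT1-AS1, at 0.59, where nicotine 3 stood far above the rest at 8.98. The adjusted p of the 5 genes ran from 0.698 to 0.998. Their SE were 0.23 to 0.57, against a median of 0.111 over all genes.

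The direct target of nicotine was examined first among gene groups. Of 16 genes for nicotinic receptor subunits, 15 were measured, and 0 passed adjustment, 0 had an unadjusted p under 0.05 and 0 separated the groups. Their median change was 0.021, or -0.036 without nicotine 2, and 9 estimates were positive and 6 negative. CHRNA5, the accessory alpha 5 subunit, stood at 10.28, 10.12 and 10.19 in untreated and 10.19, 10.12 and 10.24 in nicotine arrays. Its difference was -0.015 with a 95% interval of -0.17 to 0.14. CHRNA7, whose product forms the calcium-permeable alpha 7 receptor, stood at 6.81, 6.89 and 6.86 against 6.86, 6.79 and 6.39, a difference of -0.17 (95% interval -0.48 to 0.14), with nicotine 3 apart from the other 5 arrays. CHRNA3 and CHRNB4, which form ganglionic-type receptors with the alpha 5 subunit, differed by 0.070 and 0.047. CHRNB2, the partner of alpha subunits in the main brain receptor, differed by 0.064.

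The remaining receptor genes were of the kinds named for muscle, hair cells or neurons. Those of the muscle type differed by 0.060 for CHRNA1, -0.020 for CHRNB1, 0.074 for CHRND, 0.021 for CHRNG and 0.19 for CHRNE. The value of CHRNE was the largest positive one, and it was 0.091 without nicotine 2. CHRNA9 and CHRNA10, known from hair cells, differed by -0.13 and 0.0084. CHRNA2, CHRNA6 and CHRNB3 differed by 0.078, -0.073 and -0.12. Of the 15 genes, 2 lay above the median level of all genes and 13 below it. All 15 intervals lay within 1.5-fold in either direction, as did 97.2% of those over all genes. In untreated cells CHRNB3, CHRNA6 and CHRNA9 averaged 4.15, 4.21 and 4.81, below the silent-family means of 4.87 to 4.94. Without detection calls such signal cannot be told from background. For genes at that level the interval bounds the signal and may not bound a transcript.

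**Figure D4:**
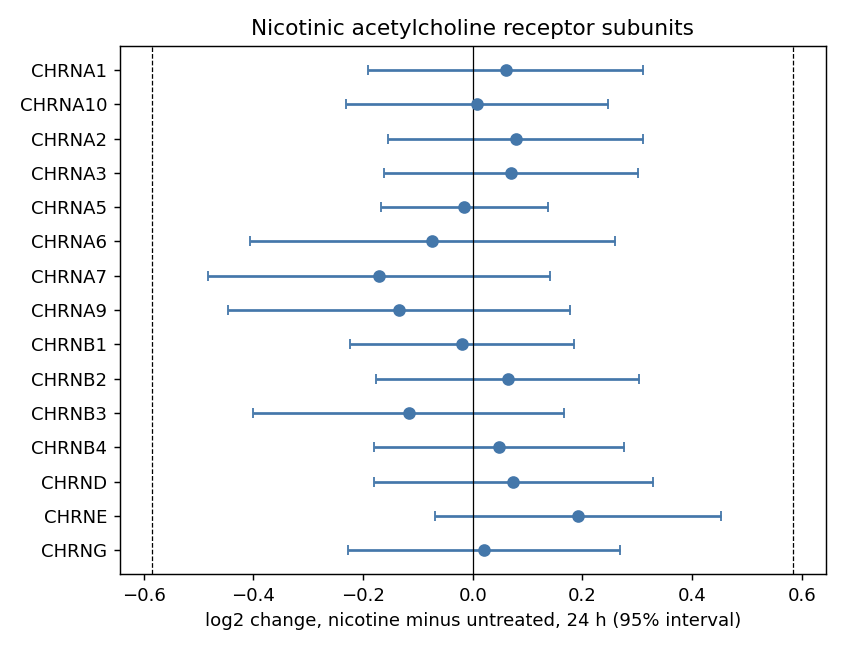
Log2 change, nicotine minus untreated at 24 h (x axis), of the 15 measured nicotinic receptor subunit genes, with bars for 95% intervals from the limma fit and dashed lines at 1.5-fold. Every interval crosses 0 and lies between the dashed lines, with estimates from -0.17 for CHRNA7 to 0.19 for CHRNE.

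Genes around the receptors also gave no call. Among 12 genes of acetylcholine synthesis, breakdown and receptor modulation, 1 had an unadjusted p under 0.05, LYPD6, a membrane-anchored modulator of nicotinic receptors, at -0.19 (adjusted p = 0.730). Among 5 muscarinic receptors, 17 genes of catecholamine synthesis and adrenergic receptors and 8 genes of nicotine metabolism, 0 did. Of the metabolism genes, AOX1, the aldehyde oxidase that forms cotinine, differed by -0.14 with a 95% interval of -0.37 to 0.078.

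Genes downstream of receptor signalling were counted against the background over all genes of 0.771% higher and 5.06% lower. Above the median level of all genes, 817 of 9208 genes were lower and 59 higher at an unadjusted p under 0.05. The median change at that level was -0.056. Of 36 immediate early and MAP kinase feedback genes, 0 were higher and 3 lower at an unadjusted p under 0.05. Their median change was -0.031 against -0.024 over all genes, and 29 of them lie above the median level. ZFP36, which encodes an RNA-binding protein that speeds decay of cytokine messages, stood at 7.93, 8.15 and 8.17 in untreated and 7.66, 7.66 and 7.68 in nicotine arrays. That difference of -0.41 (SE 0.13) had an adjusted p of 0.637, and the groups did not overlap. IER2 and JUNB, both early growth response genes, differed by -0.22 and -0.24. Of 21 genes of PI3K and AKT signalling, 3 were lower and 0 higher, with a median of -0.046, and 18 lie above the median level. AKT2, a survival kinase gene, stood at 9.33, 9.35 and 9.42 against 9.16, 9.10 and 9.14, and its adjusted p was 0.468. PDPK1 and GSK3A, kinase genes of the same pathway, differed by -0.19 and -0.17. Other rows for PDPK1, all at lower mean levels, differed by -0.032, 0.035 and 0.035.

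Survival and proliferation groups showed the same small sizes. In the BCL2 family and survival list, 1 of 20 genes was lower at an unadjusted p under 0.05, the pore-forming death gene BAK1 at -0.27 (adjusted p = 0.821). BCL2L1, which protects against BAK1, differed by -0.16 and MCL1, another protector, by 0.17, both with intervals that include 0. Of 15 genes of the calcium and CREB response, 13 EGF family genes and 23 NF-kB and cytokine genes, 0 had an unadjusted p under 0.05. CXCL8, the neutrophil chemokine gene, stood at 10.87, 10.74 and 10.90 against 10.78, 10.79 and 10.78. In the list of epithelial to mesenchymal transition, 1 of 23 was higher, the fibronectin gene FN1 at 0.095, and 0 were lower. Among 18 matrix metalloproteinases and inhibitors, 1 was lower, the urokinase receptor gene PLAUR at -0.17.

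The 5 lists with the lowest medians held genes of respiration, p53 targets, H/ACA and Cajal body small RNAs, G2/M and mitosis, and DNA replication. Most of their members lie above the median level of all genes, where 817 of 9208 genes were lower at an unadjusted p under 0.05, 59 were higher and 1069 had every nicotine array below every untreated array. Of 26 oxidative phosphorylation genes, 22 had negative estimates, 6 were lower at an unadjusted p under 0.05 and 8 had every nicotine array below every untreated array. Their median was -0.13, and -0.12 without nicotine 2. For all genes above the median level, where 25 of the 26 lie, the medians were -0.056 and 0.00037. NDUFA9 and NDUFA2, both complex I subunits, differed by -0.28 and -0.39. For NDUFA2 the values were 8.91, 8.94 and 9.07 in untreated and 8.80, 8.55 and 8.42 in nicotine arrays. None of the list passed adjustment. Against the same untreated arrays, NDUFS3 and NDUFA3 differed by -0.55 and -0.69 after radiation (adjusted p = 2.53e-06 and 1.37e-06). After smoke extract they differed by -0.52 and -0.56 (adjusted p = 1.36e-05 and 0.000118), and after cisplatin by -0.43 and -0.50 (adjusted p = 0.00166 and 0.00306). Every agent was set against the same 3 arrays, and these values are not separate evidence.

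Of 41 genes of DNA replication and G1/S, 6 were lower and 0 higher at an unadjusted p under 0.05, with 9 that had every nicotine array below every untreated array and a median of -0.095 that went to -0.031 without nicotine 2. Of these genes 39 lie above the median level of all genes, so their counts and median stand beside the values for that level given above. GINS3, a subunit of the replicative helicase complex, stood at 8.30, 8.25 and 8.35 in untreated and 8.07, 7.89 and 7.95 in nicotine arrays. TK1, thymidine kinase, stood at 9.55, 9.65 and 9.60 against 9.54, 9.32 and 8.65, a difference of -0.43 with nicotine 3 far below the others. CCND3, a G1 cyclin gene, differed by -0.23. Of 39 G2/M and mitosis genes, all above that level, 5 were lower and 1 higher, 7 had every nicotine array below every untreated array, and the median of -0.10 went to -0.038 without nicotine 2. AURKB, a mitotic kinase gene, differed by -0.24, UBE2C, which drives mitotic exit, by -0.21 and the checkpoint gene BUB1B by -0.16.

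Of 31 H/ACA and Cajal body small RNAs, which guide or assist the modification of other RNAs, 4 were lower and 1 higher, and 24 lie above the median level of all genes. Their median was -0.11, and -0.10 without nicotine 2, with SCARNA8 at -0.41, SCARNA5 at -0.31 and SCARNA9 at 0.49. Another row for SCARNA9, at a mean level of 6.81 against 8.22 for the row used, had the opposite sign, at -0.13.

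The 37 p53 targets had a median of -0.12, which went to -0.032 without nicotine 2, and 1 was lower at an unadjusted p under 0.05, the antiproliferative gene BTG1 at -0.26. CDKN1A, the p53 target that encodes the cell cycle inhibitor p21, stood at 8.35, 8.48 and 8.61 against 8.37, 8.32 and 8.30, a difference of -0.15 with a 95% interval of -0.47 to 0.16. Of 29 replication-dependent histone genes 0 had an unadjusted p under 0.05, and near-identical histone genes may share probes.

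Stress and metabolic groups held few genes past an unadjusted p of 0.05. Among 28 NRF2 targets, 1 was higher, AKR1B10, and 2 were lower, the steroid-reducing gene AKR1C2 at -0.15 and the haem transporter gene SLC48A1 at -0.26. Among 29 genes of ATF4 and the unfolded protein response, PDIA4, a disulfide isomerase of the endoplasmic reticulum, stood at 10.81, 10.72 and 10.78 against 10.87, 10.95 and 11.02, and SHMT2, of mitochondrial one-carbon metabolism, differed by -0.14. Among 17 heat shock genes 2 were lower, HSPB1 at -0.34 and the co-chaperone BAG3 at -0.17, and for HSPB1 nicotine 3 stood lowest, at 10.46, with nicotine 1 at 10.96 also below the untreated arrays and nicotine 2 among them. Of 28 genes of hypoxia, glycolysis and angiogenesis 2 were lower, the mitophagy receptor BNIP3L at -0.17 and the glycolytic kinase PGK1 at -0.15. Of 16 cholesterol synthesis genes 0 had an unadjusted p under 0.05, with a median of 0.0081. Of 16 interferon response genes 1 was lower, OAS1, a sensor of double-stranded RNA, at -0.16.

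How small a change could be seen was read from the errors of the fit. The median SE of a change over all genes was 0.111, and the median 95% interval reached 0.22 to either side, or 1.17-fold. A gene that is alone in its comparison must reach an unadjusted p of 0.05 divided by the number of genes. The change that does so at the gene's own SE had a median of 0.60, or 1.51-fold, over all genes. It fell with the level of the gene, from 0.71 (1.63-fold) in the lowest part to 0.47 (1.39-fold) in the highest. For 161 genes (0.874%) it was under 1.25-fold, for 8642 genes (46.9%) under 1.5-fold and for 17905 genes (97.2%) under 2-fold. FTSJ1 passed with a change of 0.40 because its own limit was 0.37, while NDUFS3, with a change of about the same size, had a limit of 0.46. SERPINE2 had a limit of 0.31 against an estimate of 0.23. With the 6 arrays fitted alone the median limit was 0.88.

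Seen from the other side, the intervals bound what may have been missed in each gene taken singly, and not in all genes at once. Their error was pooled over 18 groups, while the nicotine group held the least alike pair of replicates. They may therefore be too narrow for this comparison. With the 6 arrays fitted alone the median limit was 0.88 against 0.60, and intervals from that fit were not counted. The pooled intervals lay within 1.25-fold in both directions for 10789 genes (58.6%), within 1.5-fold for 17904 genes (97.2%) and within 2-fold for 18395 genes (99.9%). A change under about 1.5-fold in 1 gene of average error would thus usually not have been called. An exact permutation test of 3 arrays against 3 cannot give a two-sided p below 0.1 and so was not used.

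The same fit made many calls for the other agents. Against the same untreated arrays at 24 h it called 3875 genes after radiation, or 21% of those tested, 2959 after smoke extract, or 16.1%, and 700 after cisplatin, or 3.8%. Where many genes pass, the adjustment admits smaller changes. The smallest called change was 0.14 after radiation, 0.13 after smoke extract and 0.16 after cisplatin, and 1901, 1637 and 423 of the called genes changed by less than 0.4 on the log2 scale. The number of arrays was the same in each comparison. These comparisons share the untreated arrays, and the difference in counts between agents was not itself tested.

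Nicotine was then set directly against smoke extract of the same nicotine content at 24 h. There were 2349 genes called, or 12.8% of those tested, with 1807 higher in smoke extract and 542 lower. Fitted on the groups compared alone the count was 504, with 307 higher and 197 lower, and on the 24 h arrays it was 1132, with 901 higher and 231 lower. Leaving out nicotine 1, 2 or 3 gave 1353, 915 or 3866 genes, and leaving out the first or the third smoke extract array gave 1435 or 1530. Without nicotine 2 the split was 591 higher and 324 lower. Without nicotine 1 it was 1114 and 239, and without nicotine 3 it was 3003 and 863. After quantile normalization 1579 were higher and 777 lower. The collagenase gene MMP1 was 19.7-fold higher in smoke extract than in nicotine cells. The cytochrome P450 genes CYP1A1 and CYP1B1, both AHR targets, were 14.7-fold and 3.38-fold higher, SCUBE1 was 7.33-fold higher and TIPARP, an AHR-induced ribosyltransferase gene, 5.63-fold higher. Under nicotine alone none of these passed the test against untreated cells. MMP1 differed by -0.20 (95% interval -0.45 to 0.059), SCUBE1 by 0.026 (-0.18 to 0.23), TIPARP by 0.10 (-0.083 to 0.29) and CYP1B1 by 0.090 (-0.068 to 0.25). CYP1A1 stood at 5.26, 5.37 and 5.31 in untreated and 5.33, 5.87 and 4.84 in nicotine arrays, a difference of 0.031 (-0.24 to 0.31), with nicotine 2 high and nicotine 3 low. Of 9 genes of the AHR pathway, 1 was lower at an unadjusted p under 0.05, the aldehyde dehydrogenase gene ALDH3A1 at -0.18, where all 3 nicotine arrays lay below the untreated arrays and nicotine 3 was farthest, at 10.45.

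**Figure D5:**
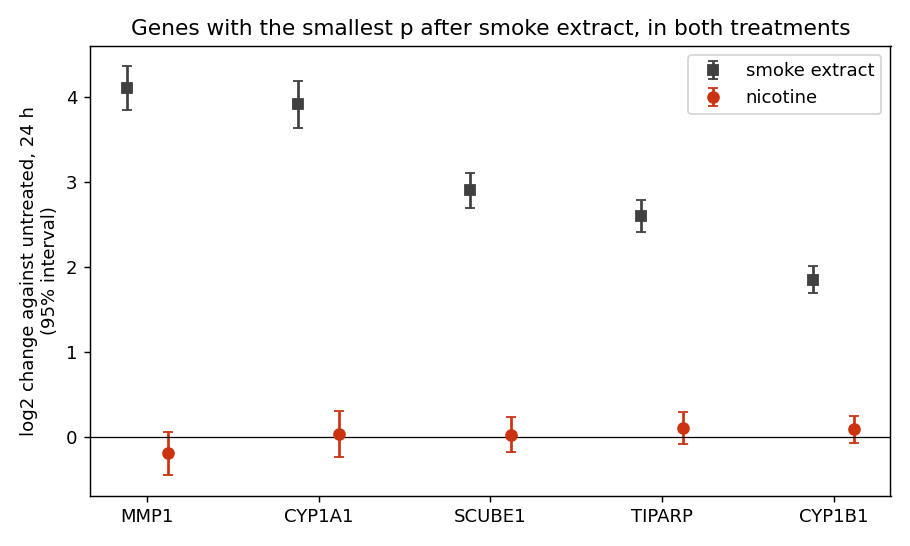
Log2 change against the same untreated arrays at 24 h (y axis) after smoke extract (grey squares) and nicotine (red circles) for the 5 genes with the smallest p after smoke extract, with bars for 95% intervals. Smoke extract values run from 1.85 for CYP1B1 to 4.10 for MMP1, and every nicotine interval includes 0.

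Nicotine added to therapy gives comparisons on arrays that nicotine alone did not use. In irradiated cells 1 gene was called, again 0.00543% of those tested, the histone gene H2BC21 at -0.93, and that gene differed by -0.28 under nicotine alone. In cisplatin-treated cells 3280 genes were called, or 17.8% of those tested, with 1519 higher and 1761 lower. The mean of the silent families moved with this difference, at 5.03 with cisplatin and nicotine and 4.82 with cisplatin, and its part in the count was not tested. Across genes, the effects of nicotine alone and of nicotine in cisplatin-treated cells had a Pearson correlation of 0.44. Without nicotine 2 the correlation was -0.078. With the effect in irradiated cells it was -0.0047, and with the effect at 2 h -0.12. These values are over genes, which do not replicate a condition, and the displacement of whole arrays enters all of these values.

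The genes at the top of the comparison were followed into those groups. Of the 10 lower genes with the smallest p, 9 had a negative estimate with radiation, 9 with cisplatin and 6 at 2 h. Their median was -0.38 alone, -0.068 with radiation, -0.16 with cisplatin and -0.0044 at 2 h. Of the 10 higher genes, 6, 10 and 6 had a positive estimate. Among the 932 lower genes, 604 were also negative with radiation, 753 with cisplatin and 429 at 2 h. Among the 142 higher genes, 65, 113 and 45 were also positive, with medians of -0.015, 0.16 and -0.037. The sign was shared by 9645, 11842 and 8498 of all 18417 genes. DMAC2 differed by -0.18 with radiation (adjusted p = 0.905), and with cisplatin it fell by 0.44 (adjusted p = 0.00632).

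Tests of the difference itself found no gene. An F test of whether the nicotine effect at 24 h differed between no therapy, radiation and cisplatin called 0 genes, or 0% of those tested. At an unadjusted p under 0.05 there were 2483. The smallest adjusted p was 0.0652, for UHRF1, which maintains DNA methylation at replication. Leaving out 1 array gave up to 6 genes, the most without nicotine 2. For the effect with cisplatin minus that alone, 12.3% of genes had an unadjusted p under 0.05. For the effect with radiation minus that alone the share was 4.33%. The count of 0 therefore does not show that the effects are alike. The effect of nicotine alone at 24 h minus that at 2 h also called 0 genes by limma, again 0%, with 565 at an unadjusted p under 0.05. Its smallest p belonged to NDUFS3, at -0.55 (adjusted p = 0.701), followed by FTSJ1, and without nicotine 1 it called 1 gene.

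Averaging the nicotine effect at 24 h over the 3 therapies used 18 arrays and called 959 genes, or 5.21% of those tested, with 144 higher and 815 lower. Fitted on the groups compared alone the count was 32, and on the 24 h arrays 26. The smallest called change was 0.099 and the median 0.22, both below the median limit of 0.60 for nicotine alone. That limit is for a gene called alone, while unadjusted p up to 0.0026 by limma passed in the averaged comparison. The thresholds are unlike, so the gap does not measure a gain in precision. The 5 genes with the smallest p were NDE1 at -0.41, CDK2AP1 at -0.38, METTL8 at -0.35, DMAC2 at -0.35 and GSTM4, a glutathione transferase gene, at -0.33. Under nicotine alone they differed by -0.23, -0.32, -0.29, -0.43 and -0.27, none past adjustment. The count includes the cisplatin arrays described above. It went to 361 with the mean of the silent families as a covariate. Leaving out nicotine 2 or untreated 3 gave 381 or 430 genes, and leaving out nicotine 3 gave 1791. Of the irradiated arrays, leaving out replicate 3 without nicotine gave 421, and replicates 1, 2 or 3 with nicotine gave 2145, 380 or 443. Of the cisplatin arrays, leaving out replicate 2 or 3 without nicotine gave 1790 or 382, and replicate 1 with nicotine gave 558.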

How the data were processed

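The deposited values number 1 per transcript cluster and array for 54 arrays. The authors' values are taken to be log2, a base inferred from their span of 0.89 to 13.81 and from array medians of 6.43 to 6.63, and all folds depend on it. Affymetrix Power Tools 1.15.0 is named in the submitters' processing notes. How background, summarization and normalization were done is not given in the sources used here, and neither is a genome build, so no coordinates are printed. Without detection calls a low value cannot be told from background.

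Of 33297 rows, 19460 had exactly 1 gene symbol in the platform annotation, 1754 several and 12083 none. Entrez identifiers matched the RefSeq gene list for 19429 rows, and 0 symbols changed. Each gene was represented by its row with the highest mean, giving 18417 genes, 769 of them with more than 1 row.

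In R 4.3.3, files were read by data.table (version 1.17.8), and limma 3.58.1 fitted 18 group means to all 54 arrays (36 residual degrees of freedom) with eBayes and a trend in mean level. All p-values are two-sided, adjusted by Benjamini-Hochberg over all genes, and called at 0.05. SE and 95% intervals come from that fit, and values after ± are SD. The smallest change callable alone uses an unadjusted p of 0.05 divided by the number of genes. The script was tested on simulated data.

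Named genes were the called genes, the 10 positive and 10 negative estimates with the smallest p, all measured nicotinic receptor subunits, up to 3 members of each other list by p, the 5 smallest p of each other fit, CYP1A1 and CDKN1A. Of 688 memberships in 31 lists, 610 were measured. The members and lists were chosen with earlier results of these data known. Deviations from the group mean had r of 0.12, 0.38 and 0.26 between untreated and nicotine samples of the same replicate number. For different numbers r was -0.30 to 0.11. Nicotine 1 had about the same r with untreated 1, 0.12, as with untreated 3, 0.11. Deviations from a mean of 3 arrays are tied to each other, so these r are not independent. The replicate number was also fitted as a block. Alternatives varied the arrays fitted, the variance model, array weights, scaling, gene filter and single arrays.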

Additional observations from a re-analysis of the deposited data

How the results depend on the processing

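The count of 1 gene for nicotine against untreated cells stayed at 1 with the replicate block, without the trend, with robust eBayes, after quantile normalization, on genes above the median level, over all rows of the table and with the silent-family covariate. It was 0 on the 6 arrays alone (621 genes at an unadjusted p under 0.05), 0 on the 24 h arrays alone (637), 0 with the replicate block on the 6 arrays (1052, an alternative chosen after seeing the data) and 0 after median centring (846). It was 206 with array weights, 32 higher and 174 lower, where nicotine 1 had a weight of 4.80 and nicotine 2 and 3 weights of 0.21 and 0.28. The default weighting algorithm stopped before converging, with 2679 calls, and the gene-by-gene algorithm replaced it after that was seen. Leaving out 1 array gave 0 to 4. The adjusted p of FTSJ1 ran from 9.18e-05 with array weights to 0.99955 on the 6 arrays, with 0.812 on the 24 h arrays, 0.191 with the block on the 6 arrays and 0.341 after median centring. The replicate block over all arrays changed no call of a named gene. The F test by therapy called 1 gene among genes above the median level, and 0 to 6 without 1 array. The mean effect over therapies called 32 genes on the groups compared, 26 on the 24 h arrays, 361 with the covariate, and 380 to 2145 without 1 array. The effect at 24 h minus 2 h called 0 or 1 without 1 array. Smoke extract against nicotine called 504 genes on the groups compared, 1132 on the 24 h arrays, and 915 to 3866 without 1 array. The median of the smallest change callable alone was 0.88 on the 6 arrays. Over all named genes and alternatives, 19 values newly passed the threshold, all with array weights or without nicotine 1, and 7 lost it, all of FTSJ1, and 0 called values changed sign. The cause of these changes was not tested. No depth exists for arrays, and signal near that of silent genes limits what can be seen.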

Other observations

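Values of some further genes under nicotine alone, none of which passed the test, are given here. The histone gene H2BC14, among the genes with the smallest p after radiation, stood at 12.19, 12.22 and 12.19 in untreated and 12.08, 11.95 and 12.13 in nicotine arrays, a difference of -0.15 (95% interval -0.34 to 0.046). SULF2, a sulfatase gene of heparan sulfate from the same comparison, differed by 0.022 (-0.13 to 0.17). HBEGF, an EGF receptor ligand gene, stood at 7.31, 7.30 and 7.42 against 7.28, 7.14 and 7.15, and ID1, an inhibitor of differentiation factors, at 7.41, 7.29 and 7.62 against 7.38, 7.15 and 7.13. The small nucleolar RNA gene SNORA3A stood at 11.79, 12.04 and 12.02 against 11.84, 11.39 and 11.25, so that nicotine 1 lay within the untreated range and the other nicotine arrays below it.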
